A study of Rattus norvegicus with 4 samples.

Results

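The tubule injury markers are 10 genes whose RNA is widely used as a sign of damage to the kidney tubule: Krt8, Krt18, Krt19, Cd44, Plaur, Havcr1, Lcn2, Spp1, Clu and Timp1. They were chosen by name, and all 10 had a probe named through its RefSeq accession, among 8963 genes named in this way. Where a gene had more than 1 probe, the brightest over the 4 arrays was used. RNA came from NRK-52E cells, an established rat kidney epithelial line, grown to confluence, exposed for 1 h to 0.003, 0.006 or 0.009% hydrogen peroxide (H2O2) or to 0% H2O2 (the control), and harvested 12 h later. All 4 cultures spent those 12 h without serum. Each dose was 1 culture on 1 array, so no value below has a spread between cultures. Precision is limited by there being 4 arrays.

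These genes belong to different parts of an epithelial cell. Keratins 8, 18 and 19 are intermediate filament proteins of simple epithelia. Keratin 8 is a type II keratin that forms filaments with a type I partner, which in simple epithelia is keratin 18 or 19. CD44 and the urokinase receptor, encoded by Plaur, are surface receptors for hyaluronan and for the protease urokinase. Havcr1 encodes KIM-1, a membrane protein of injured proximal tubule that takes up dying cells, and Lcn2 encodes lipocalin 2 (NGAL), a secreted protein that binds iron-carrying siderophores. Osteopontin (Spp1), clusterin (Clu), a secreted chaperone, and the metalloproteinase inhibitor TIMP1 are released by tubule cells after injury.

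Promoters of 4 members are shown because 3 of them, Krt18 (on 1 of its 2 probes), Cd44 and Plaur, were at least 2-fold above the control at all 3 doses, and Krt8 is the filament partner of Krt18 and its direct neighbour among the protein-coding genes of chromosome 7. The RefSeq table on the GRCr8 assembly held 8 of the 10 promoters, each running from 250 bases before to 50 bases after the start of the gene. Capitals mark matches to 3 motifs searched on both strands: TGANTCA (the site of AP-1, the dimer of Fos and Jun proteins), GAANNTTC (a heat shock element) and the NF-kB motif. No 2 matches overlapped.
Krt18, chr7:135035918-135036217, plus strand: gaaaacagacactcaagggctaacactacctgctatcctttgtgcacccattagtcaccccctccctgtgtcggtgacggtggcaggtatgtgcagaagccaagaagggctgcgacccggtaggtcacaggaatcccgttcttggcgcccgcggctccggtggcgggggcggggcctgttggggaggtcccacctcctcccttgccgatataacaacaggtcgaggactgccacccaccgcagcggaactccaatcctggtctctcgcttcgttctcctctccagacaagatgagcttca
Cd44, chr3:109699375-109699674, minus strand: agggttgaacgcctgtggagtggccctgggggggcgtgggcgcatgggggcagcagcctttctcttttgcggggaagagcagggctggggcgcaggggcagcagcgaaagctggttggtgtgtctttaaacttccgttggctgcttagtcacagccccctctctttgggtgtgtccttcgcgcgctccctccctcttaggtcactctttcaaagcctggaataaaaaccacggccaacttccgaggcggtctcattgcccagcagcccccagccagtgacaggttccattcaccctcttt
Plaur, chr1:89181113-89181412, plus strand: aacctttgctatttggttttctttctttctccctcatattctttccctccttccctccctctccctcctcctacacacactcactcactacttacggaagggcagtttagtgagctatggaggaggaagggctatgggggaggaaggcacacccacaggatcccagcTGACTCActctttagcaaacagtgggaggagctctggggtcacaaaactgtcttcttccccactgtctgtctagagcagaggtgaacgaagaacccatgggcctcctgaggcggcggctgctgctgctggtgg
Krt8, chr7:135010290-135010589, minus strand: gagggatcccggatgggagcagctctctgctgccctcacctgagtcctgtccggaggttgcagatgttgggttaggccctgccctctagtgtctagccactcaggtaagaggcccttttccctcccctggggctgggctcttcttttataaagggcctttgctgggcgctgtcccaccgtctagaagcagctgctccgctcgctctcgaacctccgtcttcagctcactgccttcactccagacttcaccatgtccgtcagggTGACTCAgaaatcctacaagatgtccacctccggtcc
In the Plaur window the AP-1 letters TGACTCA began at -83 from the start site, and in that of Krt8 the same letters began at 14, inside the transcribed part. Of 27457 rat promoters of this length, 7.33% held TGANTCA, 8.34% GAANNTTC and 1.14% the NF-kB motif. The Krt18 and Cd44 windows held none of the 3, nor did those of Lcn2, Spp1 and Timp1, while the Havcr1 window held GAATCTTC at -173. A match of letters is a description of the sequence only.

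All 4 arrays lay on 1 slide, read in 1 scan, in the order of the dose, so position and dose cannot be told apart. Of the probes, 51.8 to 54.9% had a signal well above background, and 0 spots were saturated. Signals are given here as multiples of the array's 75th percentile (scaled signal), and that percentile was 121 signal units at 0.009%, against 180 in the control. As a check of scale, Gapdh, a glycolytic enzyme, was at -0.19 (log2) and Actb, cytoplasmic actin, at 0.28 at 0.009% relative to the control, a value of Actb that turned negative with quantile, array median and spike-in scaling and in the deposited table. The epithelial label was set against markers: of 6 epithelial markers on the array, 2 to 4 were well above background on any 1 array. Epcam and Cldn7 were not on any, and the E-cadherin gene Cdh1 was on 2 of the 4. Of 13 proximal tubule markers, 6 to 8 were well above background, among them the glucose transporter gene Slc5a2, Ggt1 and Aqp1 on all 4 arrays, while the transporter genes Slc34a1, Slc22a6 and Slc22a8 were not on any array. Among fibroblast markers, 3 of 6 were well above background (Col1a2, Col3a1 and Pdgfrb), while Dcn, Lum and Thy1 were not on any array.

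In the overall count, 3 of 9 measured members were at least 2-fold above the control at 0.003%, 4 of 9 at 0.006% and 4 of 10 at 0.009%, and none was 2-fold below at any dose. Among all named genes measured, 16.1, 14.8 and 13.8% lay 2-fold or more above the control at those doses, and 12, 8.03 and 5.14% lay 2-fold or more below. The members' median log2 difference was -0.09, 0.13 and 0.52, beside 0.01, -0.01 and 0.05 for all named genes. The sign of the members' median at 0.006 and 0.009% depended on the scaling. Havcr1 entered at 0.009% only, as a lower bound of 0.78 (log2), so whether it passed 2-fold is not known. Over members well above background on both arrays, which leaves Havcr1 out, the median at 0.009% was 0.25. A 2-fold difference is a rule of size here and not a test. The members that were higher were Krt18, Krt19, Cd44 and Plaur, and each had a dose profile of its own.

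**Figure D1:**
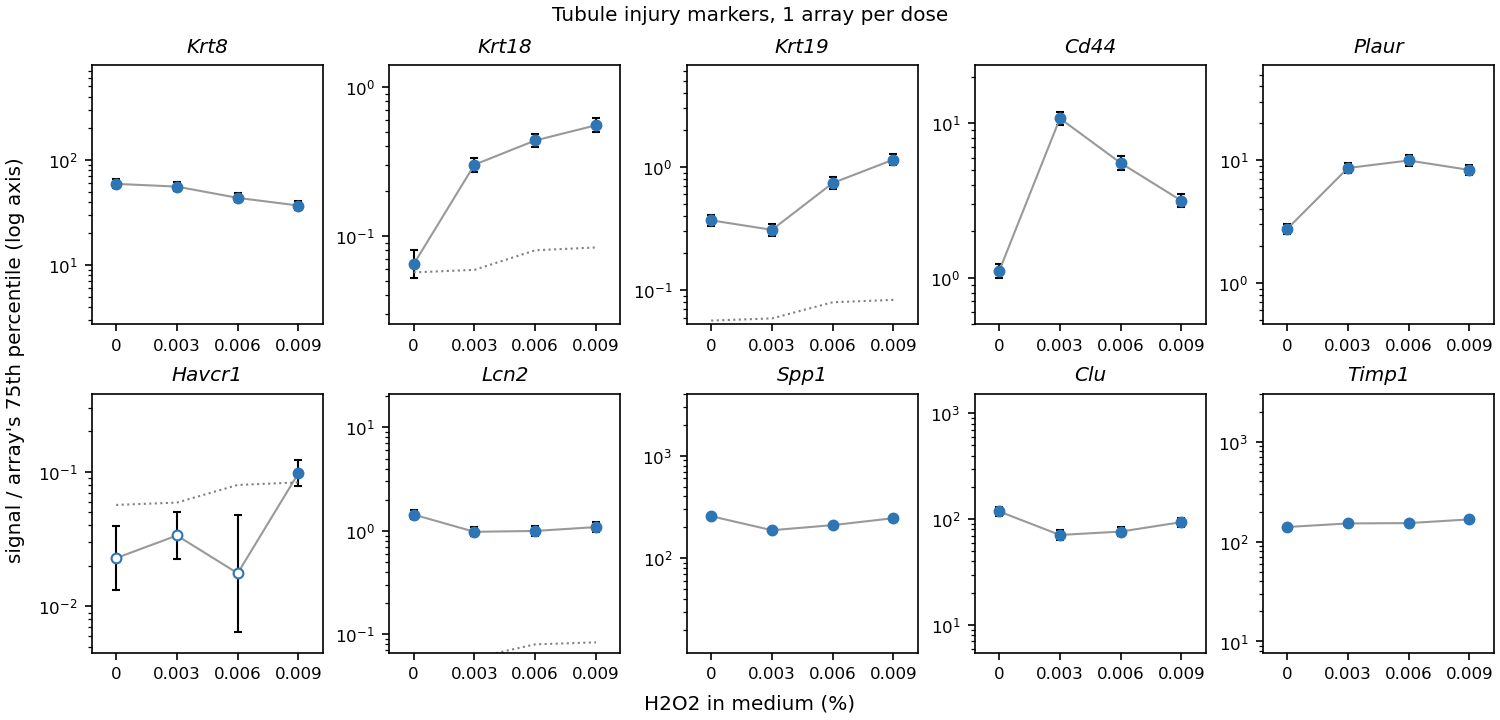
Scaled signal (signal divided by the array's 75th percentile, log axis) of the 10 tubule injury markers against the dose of H2O2 in percent, with 1 array per dose. Filled points were well above background and open points were not. Bars are the scanner software's spot error and the dotted line is the lowest signal well above background on each array. Cd44 peaks at 10.8 at 0.003%, Krt19 is above its control value of 0.369 at 0.006 and 0.009% and below it at 0.003%, and Timp1 goes from 140 in the control up to 167 at 0.009%.

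The 3 keratins differed in direction and in their order over doses. Krt18 had a scaled signal of 0.0646 in the control and of 0.300, 0.436 and 0.552 at 0.003, 0.006 and 0.009%. All 3 treated cultures were above the control, in the order of the dose, although with spike-in scaling the 0.009% culture lay below the 0.003% culture by -0.12. The differences from the control were 2.22, 2.76 and 3.1 (log2), each with a spot error of 0.34 to 0.35, which is the scanner software's error of a spot's signal and leaves out the spread between cultures. At 0.009% Krt18 was thus 8.55-fold higher by this probe. The probe was taken as the brighter of 2, but in the control it was the dimmer one, so its change with treatment entered the choice. The mean over both probes gave 1.35, 1.81 and 2.14. This control signal lay close to 0.0568, the lowest scaled signal called well above background on that array, and the size of the difference depended on the background correction: with normexp correction it was 0.75, 1.05 and 1.28, which is under 2-fold at 0.003%.

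A second Krt18 probe, well above background on all arrays, gave scaled signals of 0.101, 0.142, 0.185 and 0.230 from the control up to 0.009%. Its differences from the control were 0.48, 0.87 and 1.18, with spot errors of 0.29 to 0.30. Both probes placed the 4 cultures in the same order. The second probe reached a 2-fold difference at 0.009% only. The probes' gap of 1.91 at 0.009% was wider than that of 99.1% of the 893 genes with 2 probes well above background on both arrays, whose median gap was 0.24. Why the 2 probes differ was not tested.

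**Figure D2:**
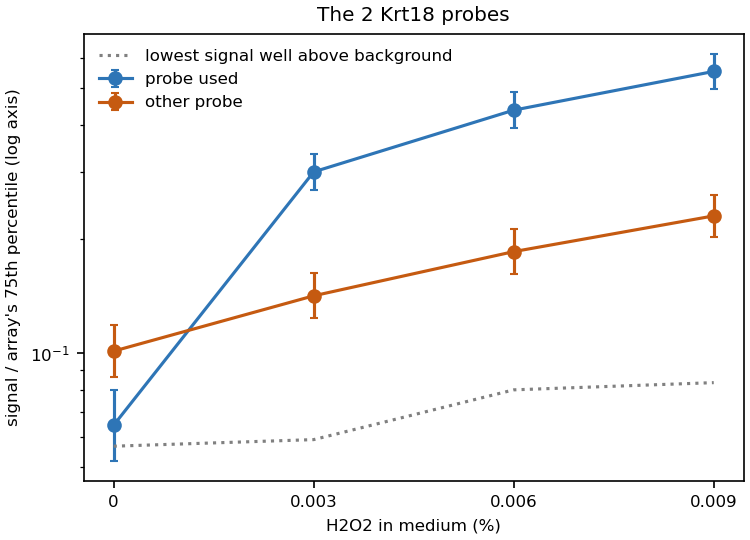
Scaled signal (log axis) of the 2 Krt18 probes against the dose of H2O2 in percent, 1 array per dose, with spot errors as bars. The probe used is at 0.552 at 0.009%, against 0.0646 in the control, where it is the dimmer of the 2 and sits next to the lowest signal well above background (dotted). The other probe is at 0.230, against 0.101.

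Krt8, the type II partner, had scaled signals of 59.3, 55.8, 43.6 and 36.9 from the control to 0.009%. Each dose lay below the one before it, an order that was the reverse of that of Krt18, except with spike-in scaling, where Krt18 did not follow the dose. The differences from the control were -0.09, -0.44 and -0.68, with a spot error of 0.20. None reached 2-fold with this scaling, and the value at 0.009% lay lower than those of all but 11.6% of named genes. Its sign was negative under all 8 alternatives of processing, but not all of these could give a new value. A stricter background filter, the mean over probes and keeping outlier spots left its values unchanged. The deposited table repeated array median scaling. With spike-in scaling the difference at 0.009% was -1.87.

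Krt19, a small type I keratin without the tail domain of other keratins, had scaled signals of 0.369 in the control and of 0.309, 0.741 and 1.15 at the 3 doses. The lowest dose was below the control and the other doses above it. The difference was -0.26 at 0.003%, 1.01 at 0.006%, past 2-fold by less than its spot error of 0.21, and 1.64 at 0.009%. At 0.006% Krt19 was under 2-fold in 5 of the 8 alternatives: quantile (0.95), array median scaling and the deposited table (both 0.69), normexp (0.65) and spike-in scaling (0.45). At 0.009% it was under 2-fold with spike-in scaling (0.45). Between 0.009 and 0.003% Krt19 was 3.71-fold higher (log2 1.89 ± 0.22, spot error), the 33rd highest of 5844 named genes. In this contrast 8.86% of named genes lay 2-fold or more above and 5.56% 2-fold or more below. Krt19 and Cd44 were the members past 2-fold in it, 1 in each direction, and with spike-in scaling Krt19 was at 0.89, under 2-fold.

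Among other type I keratins, Krt13, a keratin of stratified mucosal epithelium, had differences from the control of -0.31, 0.87 and 1.48. Over these 3 differences it was the gene nearest to Krt19 of 4987 searched, at a Euclidean distance of 0.21 (log2), followed by the kinase Taok3 at 0.25. Krt13 lies near Krt19 on chromosome 10, with Krt15 between them. Krt15 and Krt14, keratins of basal epithelial cells that were picked after their values were seen, stood at -1.17, -0.46 and 0.17, and at -1.09, -0.48 and -0.25. The value of Krt15 at 0.009% turned negative with array median and spike-in scaling and in the deposited table. Between 0.009 and 0.003% these genes were at 1.79 (Krt13), 1.34 (Krt15) and 0.84 (Krt14), the last turning negative with spike-in scaling. Hybridisation of a probe to more than 1 type I keratin was not tested.

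Of 37 other keratins and filament partners listed, 17 were on the array. At 0.009%, 3 of 12 measured lay 2-fold or more above the control and 1 below, beside 13.8 and 5.14% of named genes. In the deposited table and with array median scaling, spike-in scaling or normexp, 0 of 12 lay above, beside 2.55 to 5.21% of named genes. Krt1, a keratin of the epidermis, was at 1.22, 1.31 and 1.40, but at 0.35, 0.49 and 0.65 with normexp. Its scaled signal of 0.0706 in the control lay close to the lowest one well above background there, 0.0568. Nes (nestin) was at 0.61, 0.94 and 1.04, the last negative with spike-in scaling. Plec, plectin, which links keratin filaments to the cell surface, was at -0.54, -1.05 and -1.12.

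Cd44 had scaled signals of 1.10 in the control and of 10.8, 5.53 and 3.15 at the 3 doses. Every treated culture was above the control, and the lowest dose was the highest. The differences were 3.29, 2.33 and 1.51, with a spot error of 0.20 to 0.21, and at 0.003% Cd44 was 9.77-fold higher, the 39th highest of 5681 named genes. Between 0.009 and 0.003% it was 3.42-fold lower (log2 -1.77 ± 0.20, spot error), and only 0.394% of named genes were lower. This negative sign held under all 8 alternatives, from -2.77 to -1.71, with the same repeated values as for Krt8. At 0.009% the difference from the control fell under 2-fold with array median scaling (0.95) and with spike-in scaling (0.33). The other Cd44 probe was not well above background on any array.

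The genes nearest to the Cd44 profile were Prkaa1, a catalytic subunit of the energy sensor AMPK, at 2.99, 2.40 and 1.44, and the aldo-keto reductase Akr1b8 at 3.03, 2.69 and 1.53. For Krt18, on the probe used, they were the DNA end-joining factor Nhej1 and the carotenoid-cleaving enzyme Bco1, at distances of 0.19 and 0.29. For Plaur they were Dnaaf2, which serves assembly of axonemal dynein, and the kinase Pim3, at 0.08 and 0.09.

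Hyaluronan, the ligand of CD44, is made by synthases and cut by hyaluronidases. Has1 and Has2, hyaluronan synthases picked after their values were seen, were well above background on the 0.003% array only, where they were at least 2.21-fold and 2.54-fold higher than the control. With normexp 0 of 11 measured genes of this list were past 2-fold higher at 0.003%, beside 8.48% of named genes. Array median, quantile and spike-in scaling and the deposited table each gave 1 of 11, against 2 as reported. The shares of named genes beside these were 12.3 to 14.3%, against 16.1% as reported. Hyal2, a hyaluronidase, was at -1.38, -1.74 and -1.23. Of 10 measured genes of this list, 2 lay 2-fold or more above the control at 0.009%, Cd74 and Srgn, and 1 below, Hyal2, beside 13.8 and 5.14% of named genes. Array median scaling gave 1 above and 4 below, beside 5.2 and 21.8% of named genes. Spike-in scaling gave 0 and 5, beside 2.55 and 56.6%. For Cd74, a surface partner of CD44, the bounds were 1.39-fold, 2.57-fold and 3.99-fold above the control, and for Srgn, the proteoglycan serglycin, 2.43-fold at 0.009%. With normexp these were at 0.89 and 0.72 (log2) at 0.009%, under 2-fold.

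Plaur had scaled signals of 2.76 in the control and of 8.66, 9.97 and 8.35 at the 3 doses. The treated cultures lay close together, all above the control. Their differences were 1.65, 1.85 and 1.60, with a spot error of 0.20, or 3.14-fold, 3.62-fold and 3.03-fold. The 0.009% culture differed from the 0.003% culture by -0.05 ± 0.20 (spot error), which is within that error, and by -1.05 with spike-in scaling. At 0.009% the difference from the control was 0.41 with spike-in scaling.

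Of the urokinase and plasminogen system, 18 of 25 listed genes were on the array. Plau, urokinase itself and the ligand of the receptor, was not well above background on any array, and was picked after its value was seen. Serpinb2, an inhibitor of urokinase, was not well above background in the control and exceeded it by at least 15.2-fold, 16.0-fold and 8.74-fold at the 3 doses, and at 1.77, 1.78 and 1.23 (log2) with normexp. Serpinf2, the plasmin inhibitor alpha-2-antiplasmin, exceeded it by at least 1.92-fold, 4.55-fold and 7.12-fold, and at 0.33, 0.75 and 1.14 (log2) with normexp. Plg, plasminogen, was well above background at 0.009% only, at least 2.84-fold above the control (0.73 on the log2 scale with normexp). Egfr, the EGF receptor, a signalling partner of the urokinase receptor, was at -1.07, -1.24 and -1.22. In all, 3 of 12 genes lay 2-fold or more above the control and 1 below at 0.009%, beside 13.8 and 5.14% of named genes. Array median scaling gave 2 above and 3 below, beside 5.2 and 21.8% of named genes. Spike-in scaling gave 2 and 7, beside 2.55 and 56.6%.

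**Figure D3:**
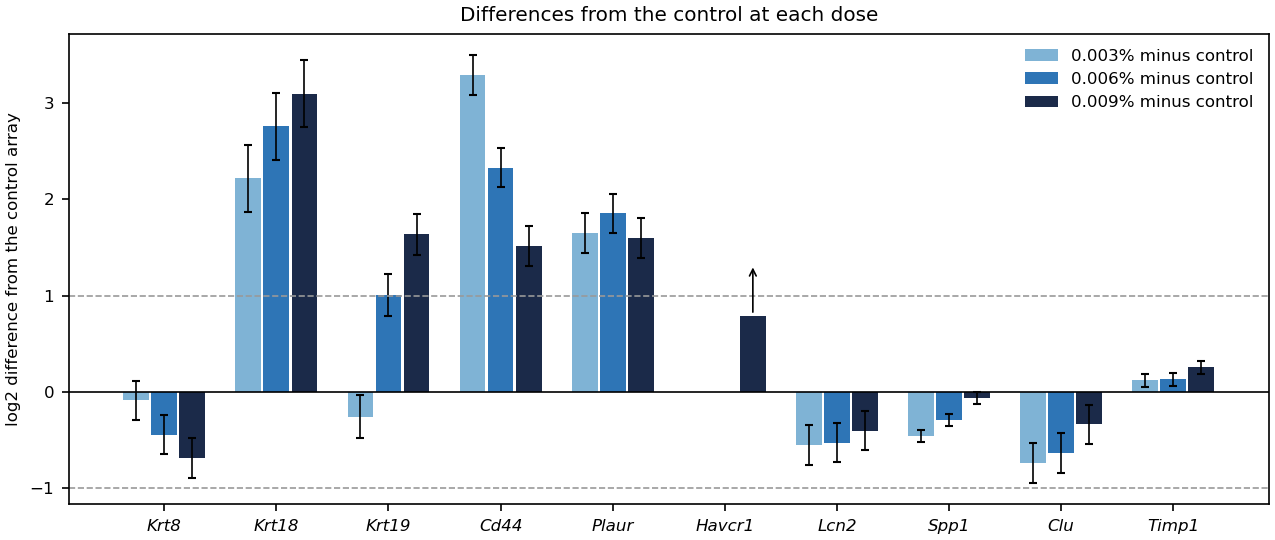
Log2 difference of each tubule injury marker from the control array at 0.003, 0.006 and 0.009% H2O2, with the scanner software's spot error as bars, and dashed lines at 2-fold. The arrow marks a lower bound, and Havcr1 has no bar where neither array was well above background. Krt18 is higher with each dose (an order lost with spike-in scaling), Cd44 is highest at 0.003% (3.29) and lowest at 0.009% (1.51), and Krt8, Lcn2, Spp1 and Clu lie below 0 at every dose.

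The markers best known from urine and blood tests of kidney injury were among those not counted as past 2-fold with this scaling. Havcr1 was not well above background in the control or at 0.003 and 0.006%. At 0.009% its scaled signal was 0.0979, just over the lowest signal well above background of 0.0836. The difference from the control was at least 1.72-fold. Being a lower bound, it cannot show whether Havcr1 reached 2-fold. With spike-in scaling this bound was lost. It fell to 0.05 (log2) with quantile normalization and to 0.22 with array median scaling and in the deposited table. Lcn2 had scaled signals of 1.44 in the control and of 0.979, 0.998 and 1.09 at the 3 doses. All treated cultures were below the control, by -0.55, -0.52 and -0.40 with a spot error of 0.21. This sign held under all 8 alternatives, with the same repeats as for Krt8. With spike-in scaling Lcn2 was past 2-fold lower at 0.006 and 0.009%, at -1.08 and -1.59.

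Spp1, osteopontin, is spotted 10 times on each array, so its measurement error is small. It had scaled signals of 256, 187, 210 and 245 from the control to 0.009%, with an SD between spots of 0.03 to 0.05 (log2, n = 10 spots of 1 array). The lowest dose was furthest below the control, by -0.46 ± 0.06 (spot error), and the difference was -0.29 at 0.006% and -0.06 at 0.009%. Clu had the same order over doses, with scaled signals of 118, 71.0, 76.4 and 93.9 and differences of -0.74, -0.63 and -0.34. Neither gene reached 2-fold with this scaling. Both were negative at every dose under all 8 alternatives, with repeats as for Krt8. Clu passed 2-fold lower at 0.003% with quantile normalization (-1.04) and at 0.006 and 0.009% with spike-in scaling (-1.19 and -1.52), as did Spp1 at 0.009% with spike-in scaling (-1.25). The higher values at 0.009% than at 0.003%, by 0.39 for Spp1 and 0.40 for Clu, turned negative with array median and spike-in scaling and in the deposited table.

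Timp1, also spotted 10 times, had scaled signals of 140, 152, 153 and 167 from the control to 0.009%. Its differences were 0.12, 0.13 and 0.25, with a spot error of 0.06, and all 3 turned negative with array median, quantile and spike-in scaling and in the deposited table. No direction can therefore be given for Timp1. Timp3, a matrix-bound inhibitor of the same family, was at -2.12, -1.81 and -1.40, the last at -0.60 with normexp, under 2-fold. A further list held other TIMP genes, metalloproteinases, and the associated genes Cd63 and Bsg. At 0.003%, 5 of its 14 measured genes lay 2-fold or more below the control and 0 above, beside 12 and 16.1% of named genes. At 0.006%, 3 of 14 lay below and 1 above, beside 8.03 and 14.8%. At 0.009% 1 of 15 was lower, beside 5.14%. With spike-in scaling 10 of 15 were, beside 56.6% of named genes.

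Among partners of osteopontin, clusterin, lipocalin 2 and KIM-1, 12 of 21 were on the array. Cubn, the endocytic receptor cubilin, exceeded the control by at least 1.57-fold, 2.63-fold and 2.20-fold at the 3 doses, but at 0.23, 0.47 and 0.57 (log2) with normexp, and the bound at 0.009% was lost with spike-in scaling. It was the 1 of 7 measured genes of this list past 2-fold at 0.009%, beside 13.8% of named genes higher.

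A wider list of 41 genes of tubule injury and repair had 33 on the array, of which 4 of 26 measured lay 2-fold or more above the control and 1 below at 0.003%, 5 of 28 above at 0.006% and 3 of 26 above at 0.009%. These shares, set beside 16.1, 14.8 and 13.8% of named genes, were near the background, and the list's medians were -0.02, 0.15 and 0.23. At 0.009% 0 lay above with array median and spike-in scaling, beside 5.2 and 2.55% of named genes. Tnfrsf12a, the receptor of the cytokine TWEAK, was at 1.79, 1.77 and 1.45. Itgb6, the beta chain of an integrin that activates TGF-beta, exceeded the control by at least 1.72-fold, 2.46-fold and 2.38-fold, and the fibrinogen chain gene Fgb at least 1.57-fold, 2.10-fold and 2.42-fold. With normexp both were under 2-fold at 0.009%, at 0.67 and 0.52 (log2). Of the genes named from the related lists as higher at 0.009%, Serpinb2 and Serpinf2 stayed past 2-fold there with spike-in scaling, and the others did not.

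**Figure D4:**
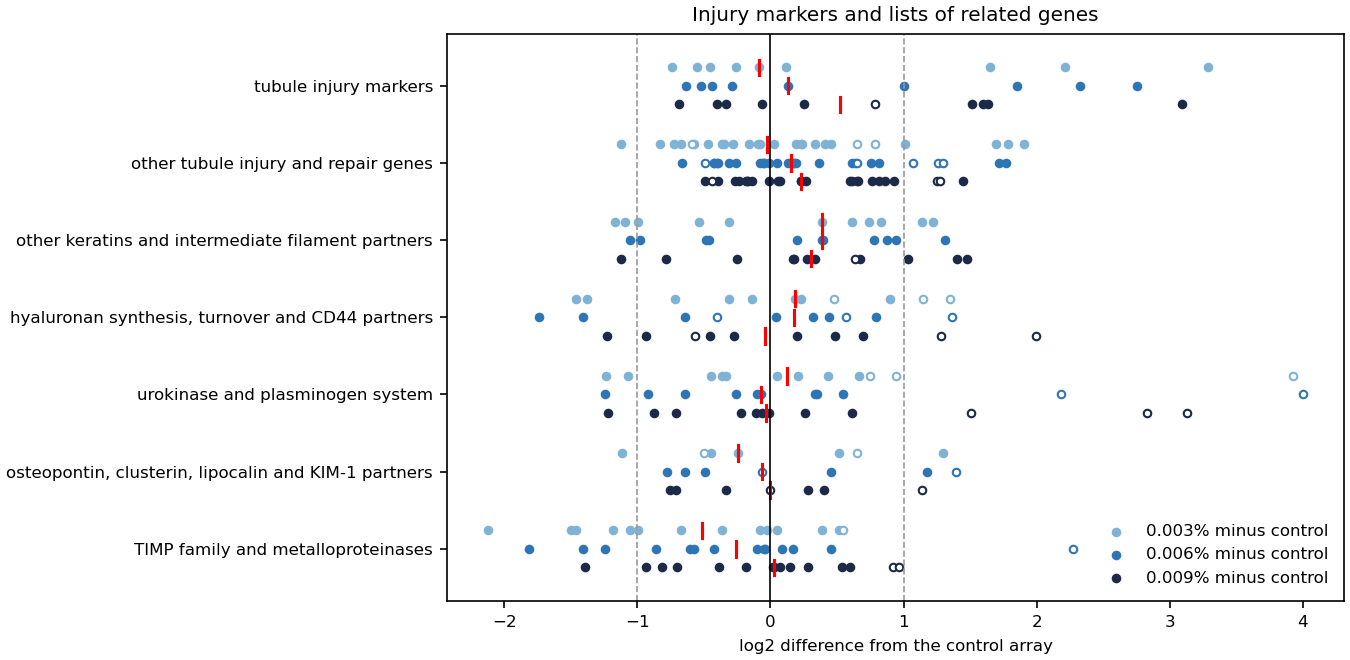
Log2 differences from the control array of the tubule injury markers and of 6 lists of related genes at 0.003, 0.006 and 0.009% H2O2, 1 point per measured gene. Open points are bounds, red ticks are list medians and dashed lines mark 2-fold. The 10 injury markers spread from -0.68 to 3.1 at 0.009%, and the metalloproteinase list has its median at -0.52 at 0.003%, against 0.03 at 0.009%.

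Genes used as markers of other cells also differed between the cultures, all of which were of the NRK-52E line. The summed scaled signal of the 6 fibroblast markers was 32.1 in the control and 9.25, 13.3 and 19.7 at the 3 doses, and that of the 7 macrophage and other white cell markers was 42.2, 27.3, 22.6 and 23.6, most of it from Cd14. Cd68, another macrophage marker, went the other way, with scaled signals of 2.23, 2.71, 3.87 and 4.12, and the median difference of that list was 0.26, -0.40 and 0.28. The summed scaled signal of the 3 endothelial markers was 0.135, 0.233, 0.290 and 0.363. Most of it came from Kdr, as Pecam1 and Emcn were not well above background on any array. Itgam and Cd79b, markers of white cells, were not well above background on any array. The part of these levels in the members' values was not tested, and the sums were not recomputed with other ways of scaling. In bulk RNA, fewer cells holding a gene's RNA and less of that RNA per cell cannot be told apart.

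A straight line over the 4 doses was fitted with limma to 23767 features, the 1 test across samples that was run. It called 0 features at a Benjamini-Hochberg adjusted p under 0.05 (0%), and 13.7% had an unadjusted p under 0.05. Krt18 had a slope of 0.98 (log2) per step of dose (limma adjusted p = 0.283), Krt19 of 0.62 (limma adjusted p = 0.312) and Krt8 of -0.24 (limma adjusted p = 0.438). The unadjusted p was 0.0148 for Krt18 and 0.0254 for Krt19, and for the other members it was 0.0969 or more. The slopes of Cd44 and Plaur were 0.36 and 0.50 (limma adjusted p = 0.78 and 0.449), and a straight line leaves out the peak of Cd44 at 0.003%.

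**Figure D5:**
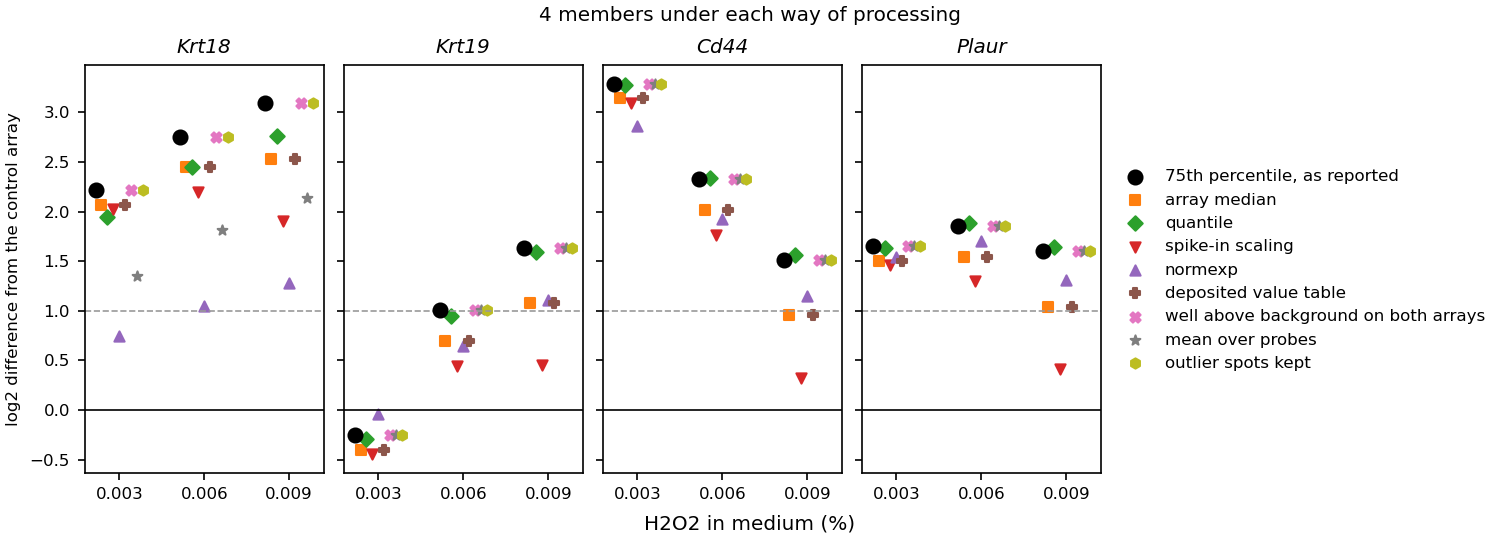
Log2 difference from the control array of Krt18, Krt19, Cd44 and Plaur at each dose under each way of processing (1 symbol each), with dashed lines at 2-fold. Plaur and Cd44 stay past 2-fold at 0.003 and 0.006% under every way shown, Krt18 is lowest with normexp (0.75 at 0.003%), and spike-in scaling is lowest for all but Krt18 at 0.009%, where normexp is (1.28).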

How the data were processed

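Total RNA of 4 NRK-52E cultures was labelled with Cy3 and hybridised to 1-colour Agilent arrays of design 014879 (annotated on rn4). Agilent Feature Extraction 10.7.3.1 was used by the authors, per the file headers (protocol GE1_107_Sep09). The deposited spot values are background-subtracted intensity on a linear scale, unscaled between arrays and with an error estimate. In the deposited value table each entry is a ratio, the mean spot signal over the array's median spot signal in 100% of probes (within 1e-06 of the value).

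Flagged outlier spots were left out, spots of a probe were averaged as log2, and each array was scaled to the 75th percentile of its noncontrol spots. Among 41012 probes, 10835 (26.4%) were named through RefSeq accessions in a GRCr8 gene table, used for names and gene order only. A gene took its brightest probe well above background on at least 1 array. A pair of arrays was compared over features well above background on either. A dim side took its own value or the array's lowest signal well above background, whichever was higher, and the difference is written "at least" or called a bound. The trend used limma 3.58.1 in R 4.3.3 with 2 residual degrees of freedom and was tested on simulated data. With 1 array per dose, p-values measure the spread around a line only.

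Alternatives were array median, quantile and spike-in scaling (8 spike-in probes), normexp (offset 50, on median signals, since the files hold no mean signal), the deposited table, a stricter background filter, the mean over probes, and outlier spots kept. Members, lists and rules were chosen with earlier results of these data known. All members are named. So are, per related list, up to 4 genes furthest from the control at 0.009% and past 2-fold, the 2 genes nearest to each member that is past 2-fold, and Gapdh and Actb. Marker lists cover epithelial, proximal tubule, distal tubule and collecting duct, fibroblast, endothelial, and macrophage and other white cells.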

Additional observations from a re-analysis of the deposited data

How the results depend on the processing

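Under the 8 alternatives, 62 recomputed counts stayed within 1.5 times the reported count and 10 did not. The stricter background filter, the mean over probes and kept outlier spots left all counts of members past 2-fold as reported. The deposited table repeated those of array median scaling, so the 62 are not separate checks. The number of members at least 2-fold lower was reported as 0 at each dose. It became 1 (Krt8) at 0.009% with array median scaling and with the deposited table, beside 21.8% of named genes. With quantile normalization it became 1 at 0.003%, beside 12.7% of named genes. With spike-in scaling it became 3 at 0.006%, beside 28.8% of named genes, and 4 at 0.009%. With spike-in scaling 1 member, Krt18 on the probe used, stayed at least 2-fold higher at 0.009%, against 4 as reported. That probe went from 3.1 to 1.91 (log2). A shift of that size takes away the whole difference of the second Krt18 probe, reported at 1.18. Between 0.009 and 0.003%, members at least 2-fold lower numbered 2 with array median scaling and the deposited table and 3 with spike-in scaling, against 1 as reported. Of named genes, 16.9% were 2-fold lower in this contrast with array median scaling and 43.6% with spike-in scaling, against 5.56% as reported. With spike-in scaling 0 members were higher, beside 0.43% of named genes. The members' median turned negative at 0.006 and 0.009% with array median scaling (-0.18 and -0.042), the deposited table (-0.18 and -0.042), quantile normalization (-0.22 and -0.093) and spike-in scaling (-0.43 and -0.47). Between 0.009 and 0.003% it turned to -0.14 with array median scaling and the deposited table (-0.14) and to -0.73 with spike-in scaling. By their construction, array median and spike-in scaling shift all features of an array alike; spike-in scaling moved the median of all named genes to -1.12 at 0.009%, quantile normalization to -0.06 and array median scaling to -0.49. At that dose the share of named genes at least 2-fold higher was 2.55% with spike-in scaling, 5.2% with array median scaling and 8.61% with quantile normalization, and at least 2-fold lower 56.6, 21.8 and 7.6%. With normexp those shares were 4.53 and 3.28%. No alternative turned the sign of a member past 2-fold, with Krt18 taken on the probe used or as the mean over probes. Krt18 at 0.009% against 0.003%, reported at 0.88, was at -0.12 with spike-in scaling. The trend called 0 features under all 8, and the members' adjusted p in limma ranged from 0.103 to 0.995. No paired analysis was possible because each dose has 1 array and the labels give no replicate numbers. Leaving out a replicate was not possible for the same reason. Signal over background limits Krt18, Krt1, Havcr1 and the genes given as bounds.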

Other observations

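Markers of the distal tubule and collecting duct, which belong in no comparison above, were mostly dim: 6 of 9 on the array were not well above background at any dose. Gata3, a transcription factor of the collecting duct, exceeded the control by at least 6.40-fold, 3.26-fold and 2.77-fold at 0.003, 0.006 and 0.009%, most at the lowest dose. Of 3 endothelial markers on the array, Pecam1 and Emcn were not well above background on any array, and Kdr, a receptor of VEGF, was at 0.92, 1.20 and 1.59 (log2). These genes were picked after their values were seen, and other ways of processing were not run for them. Spike-in scaling lowers every feature at 0.009% as it did the Krt18 probe used, from 3.1 to 1.91 (log2). A shift of that size takes Gata3 and Kdr under 2-fold at that dose.

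At 0.003% the chemokine gene Ccl2 was 3.24-fold and the glutathione transferase gene Gsta1 3.75-fold above the control, and at 0.009% they were at -0.24 and 0.86 (log2). Both were thus, with Cd44, lower at 0.009% than at 0.003%, by -1.93 for Ccl2 and -1.04 for Gsta1. They were picked from the list of injury and repair genes after their values were seen. Other ways of processing were run for counts over that list, and values for each of its genes are not given. Between 0.009 and 0.003%, 2 of 25 measured genes of the list were 2-fold lower as reported, beside 5.56% of named genes. With quantile normalization 1 of 25 was, beside 7.6%.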
